A study of Mus musculus with 17 samples.

Results

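Cell division in perigonadal white adipose tissue (pWAT), the fat pad around the gonads, was followed through 10 genes of S phase and mitosis: *Mki67*, *Top2a*, *Ccnb1*, *Ccna2*, *Cdk1*, *Birc5*, *Rrm2*, *Mcm5*, *Pcna* and *Bub1*. The list was given by name and all 10 were found, among 55401 genes measured. Whole pWAT was collected at 16 weeks of age from C57BL/6J mice kept on standard chow. The U9-KO mice were homozygous for a deletion of all exons of the long non-coding RNA *U90926*, and the WT mice were littermates from crosses of heterozygous parents. RNA was sequenced from 5 WT females, 5 U9-KO females, 3 WT males and 4 U9-KO males, with 1 library per mouse. Values are normalised read counts, in which each library's reads were scaled by its own size factor. These factors were set within each sex, so females and males were not tested against each other. In GENCODE M21 (GRCm38) the S phase genes are *Pcna* at chr2:132249162-132253314 (minus strand), *Mcm5* at chr8:75109569-75128439 (plus strand) and *Rrm2* at chr12:24708241-24714146 (plus strand). Of the cyclins and their kinase, *Ccna2* is at chr3:36564865-36572150 (minus strand), *Ccnb1* is at chr13:100778650-100786570 (minus strand) and *Cdk1* is at chr10:69335146-69352938 (minus strand). The remaining mitotic genes are *Mki67* at chr7:135689784-135716361 (minus strand), *Top2a* at chr11:98992943-99024189 (minus strand), *Birc5* at chr11:117849251-117855743 (plus strand) and *Bub1* at chr2:127801122-127831865 (minus strand). Values are summed over the exons of each gene.

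These genes act at successive steps of the cell cycle. Before and during S phase the MCM ring opens the DNA, ribonucleotide reductase supplies deoxynucleotides and the sliding clamp PCNA holds the polymerase. Cyclin A and cyclin B then activate CDK1, topoisomerase II untangles the sister chromatids, and the kinetochore kinase BUB1 and survivin (*Birc5*) control their attachment and separation. Transcripts of most of these genes are scarce in resting cells and accumulate as a cell approaches division, so they are widely used as markers of dividing cells. Mature adipocytes do not divide. In adipose tissue the dividing cells are mostly progenitors, macrophages, lymphocytes and endothelial cells, and the granulosa cells of the neighbouring ovary divide rapidly in growing follicles.

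Cell cycle genes are known for shared promoter elements, and the promoters of 4 members are shown here. These are the members with a match other than the CCAAT box. Whether these elements bear on the variation between mice was not tested. The 250 bases before the RefSeq transcription start (GRCm38.p6) were searched on both strands for the CCAAT box (CCAAT), the cell cycle homology region (TTTGAA) and an E2F site (TTTNNCGC), and matches are in capitals below. *Mki67* is shown at chr7:135716380-135716629, *Top2a* at chr11:99024190-99024439 and *Cdk1* at chr10:69352913-69353162, all on the minus strand, and *Mcm5* at chr8:75109259-75109508 on the plus strand. In *Cdk1* the last 26 bases shown lie inside the GENCODE gene.

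Mki67: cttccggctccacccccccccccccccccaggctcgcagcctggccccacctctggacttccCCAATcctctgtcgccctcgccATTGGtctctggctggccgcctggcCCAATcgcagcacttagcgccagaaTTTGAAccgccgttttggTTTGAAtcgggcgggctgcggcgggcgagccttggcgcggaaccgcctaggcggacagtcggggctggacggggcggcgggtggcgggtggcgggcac
Top2a: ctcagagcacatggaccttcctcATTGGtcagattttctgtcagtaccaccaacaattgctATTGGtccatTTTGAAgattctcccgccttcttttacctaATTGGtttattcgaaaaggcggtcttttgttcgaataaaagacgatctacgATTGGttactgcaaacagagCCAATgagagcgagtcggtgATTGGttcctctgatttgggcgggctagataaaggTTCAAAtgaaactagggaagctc
Cdk1: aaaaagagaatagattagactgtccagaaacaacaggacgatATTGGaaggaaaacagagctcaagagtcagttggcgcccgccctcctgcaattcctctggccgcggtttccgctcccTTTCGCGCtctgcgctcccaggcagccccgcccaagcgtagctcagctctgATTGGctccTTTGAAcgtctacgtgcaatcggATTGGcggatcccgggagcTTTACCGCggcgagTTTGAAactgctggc
Mcm5: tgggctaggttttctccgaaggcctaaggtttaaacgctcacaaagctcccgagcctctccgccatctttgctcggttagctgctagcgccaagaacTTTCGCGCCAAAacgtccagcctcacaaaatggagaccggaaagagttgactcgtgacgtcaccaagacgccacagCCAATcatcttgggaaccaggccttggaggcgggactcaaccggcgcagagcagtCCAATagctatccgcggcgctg

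The *Mki67* window held 3 CCAAT boxes and 2 homology regions, and that of *Top2a* held 6 and 2. *Cdk1* had 3 CCAAT boxes, 2 homology regions and 2 E2F sites. *Mcm5* had 2 CCAAT boxes and 2 E2F matches that overlap each other on opposite strands, and no homology region. Promoters were given for 9 of the 10 genes, all but *Ccna2*. CCAAT was present in 8 of the 9 (88.9%), against 37.5% of the 27025 genes with a promoter in the table. TTTGAA was present in 3 of the 9 (33.3%, against 18.3%) and TTTNNCGC in 2 of the 9 (22.2%, against 4.94%), all of them among the promoters shown. *Ccnb1*, *Rrm2*, *Pcna* and *Bub1* held CCAAT only, and *Birc5* held none of these motifs. A match describes these letters and does not show that a factor binds there.

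Totals of normalised reads were 20243688 to 28620744 in females and 22024872 to 23916425 in males. *U90926* had a value of 1 in 2 WT libraries, female 3 and male 2, and 0 in every other library, so its level could not serve to check the genotype labels. Fat was present in all libraries, *Adipoq* (adiponectin) lying between 27618 and 72328. Ovarian transcripts set a pair of female libraries apart. *Inha*, the inhibin alpha subunit made by granulosa cells, was at 7239 in WT female 4 and 4018 in U9-KO female 1, against 227 to 1070 in the other 8 females and 27 to 49 in males. In these same libraries *Adipoq* was lowest of the females, at 30644 and 27618. In whole tissue, fewer cells of a type and less RNA per cell cannot be told apart.

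*Pcna* had the highest mean of the members in every group, although *Top2a* (1421) exceeded it in WT female 4. On the log2 scale *Pcna* also had the smallest SD of the members within each sex. In WT females replicates 1 to 5 it had 1015, 948, 1015, 1367 and 1063 normalised reads, and in U9-KO females 1 to 5 it had 1200, 981, 1078, 1156 and 1041. Males were within 914 to 1019. The highest female exceeded the lowest by 1.44-fold, and the highest male the lowest by 1.11-fold. *Mcm5*, a subunit of the MCM helicase, had 153, 186, 313, 481 and 245 in WT females and 385, 174, 178, 371 and 192 in U9-KO females. In males it stayed within 139 to 171. *Rrm2*, the regulatory subunit of ribonucleotide reductase, had 49, 62, 121, 300 and 59 in WT females and 240, 65, 62, 149 and 80 in U9-KO females. Its males had 72, 115 and 58 in WT and 62, 69, 37 and 45 in U9-KO. Of these S phase genes *Rrm2* varied most among females, by 6.12-fold.

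By the ratio of the highest to the lowest female, every mitotic member but *Ccna2* (5.96-fold) varied more than *Rrm2*. *Mki67*, which encodes the Ki-67 protein of dividing nuclei, had 165, 267, 522, 1289 and 283 in WT females and 1139, 301, 283, 434 and 249 in U9-KO females. *Top2a*, DNA topoisomerase II alpha, had 160, 224, 518, 1421 and 259 in WT females and 960, 225, 211, 418 and 260 in U9-KO females. In both genes 1 mouse of each genotype, WT female 4 and U9-KO female 1, stood far above the rest. *Ccnb1*, cyclin B1, had 23, 45, 70, 340 and 54 in WT females and 210, 30, 46, 71 and 31 in U9-KO females. *Bub1*, a kinase of the spindle checkpoint, had 12, 29, 77, 226 and 34 in WT females and 122, 24, 36, 47 and 36 in U9-KO females. The highest female exceeded the lowest by 14.8-fold for *Ccnb1* and by 18.8-fold for *Bub1*. *Cdk1*, the kinase that drives entry into mitosis, ranged from 34 to 332 among females, *Ccna2* (cyclin A2) from 72 to 429 and *Birc5* from 32 to 246.

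In males the highest and lowest values of these genes were closer together. *Mki67* had 168, 381 and 211 in WT males and 291, 169, 131 and 240 in U9-KO males. *Top2a* had 106, 258 and 174 in WT males and 209, 125, 90 and 107 in U9-KO males. Here WT male 2 was highest, followed by U9-KO male 1. *Ccnb1* lay between 17 and 46, *Bub1* between 4 and 29, *Cdk1* between 22 and 72, *Birc5* between 16 and 65 and *Ccna2* between 29 and 84. At these counts the precision of *Bub1* is limited by the few reads behind it.

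**Figure D1:**
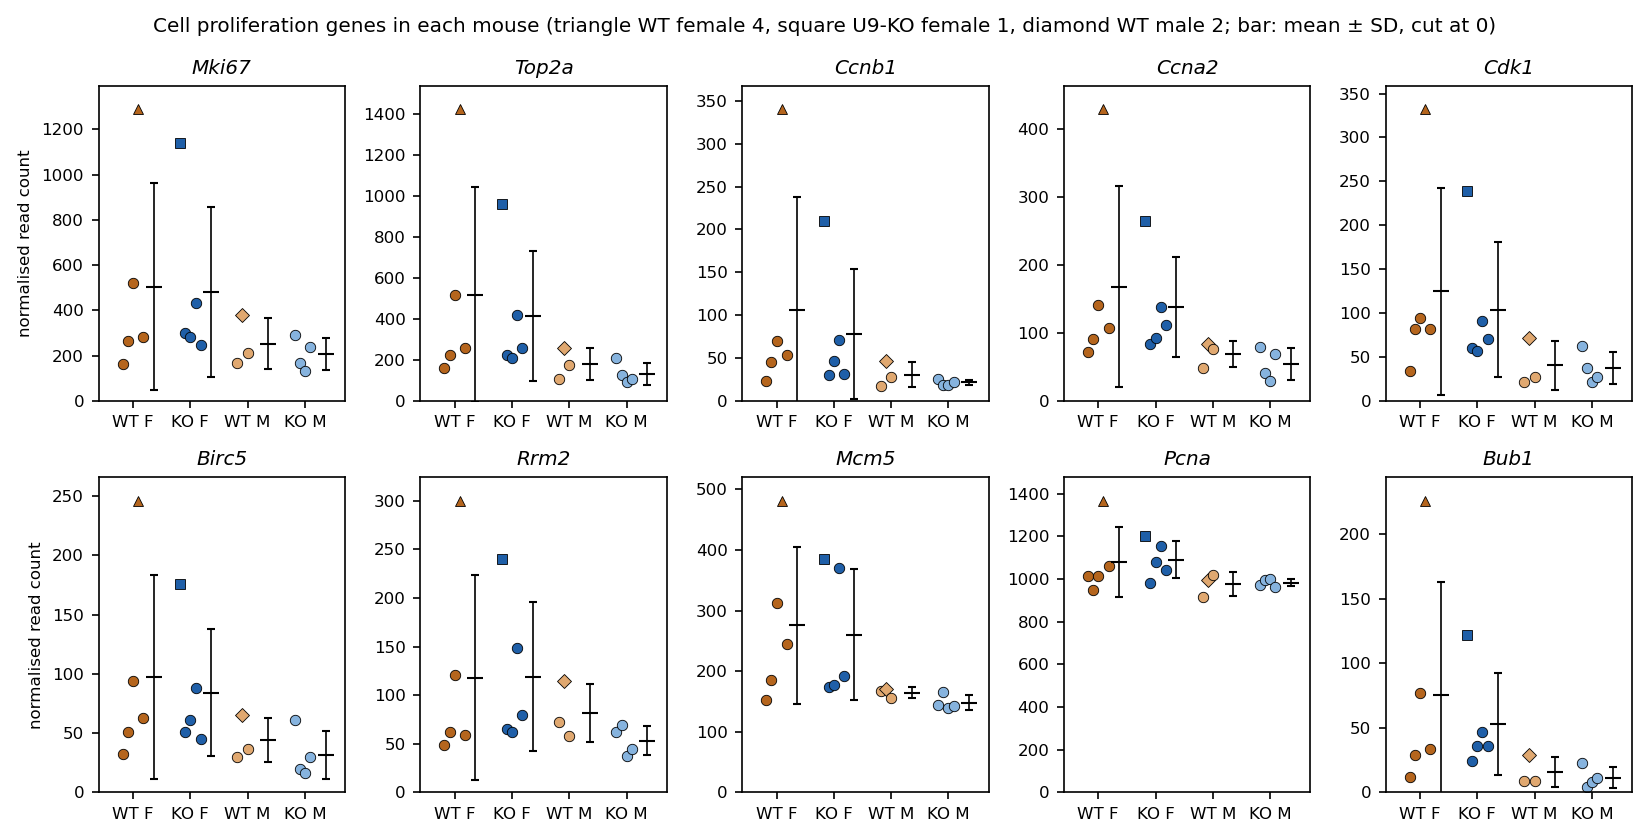
Normalised read counts of the 10 proliferation genes (vertical axis, linear, from 0) in each mouse, grouped as WT and U9-KO females (F) and males (M), with the mean ± SD of each group beside its points. WT female 4 (triangle, 1289 for *Mki67*) and U9-KO female 1 (square, 1139) stand above the other females in every panel, while *Pcna* stays between 914 and 1367 throughout.

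Divided by the summed length of its exons, *Pcna* reached 453 normalised reads per kilobase as a mean over females, far above *Mcm5* at 67.1, *Top2a* at 51.7, *Mki67* at 49.0, *Rrm2* at 42.8 and *Ccna2* at 37.5. *Birc5* (26.7), *Cdk1* (23.1), *Ccnb1* (21.8) and *Bub1* (14.8) were lowest on this per-length scale. From *Mcm5* downwards, neighbours in this order differed by less than their spread between mice. Pseudogenes named after *Ccnb1* and *Pcna* were looked up, since such copies can take or lend reads. Pseudogenes of the other members were not searched for. *Ccnb1-ps* had at most 5 and *Pcna-ps1* was at 0 in every mouse, whereas *Pcna-ps2* had 46 to 88, which is small beside *Pcna* itself.

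The highest mice were nearly the same for every member. WT female 4 was highest among females for 10 of 10 genes and U9-KO female 1 second for 10 of 10. The next place fell to WT female 3 for 6 genes and to U9-KO female 4 for the other 4 (*Ccnb1*, *Rrm2*, *Mcm5* and *Pcna*). WT female 1 was lowest for 9. In males, WT male 2 was highest for 9 of 10, all but *Pcna*, but the order below it varied. WT male 1 was lowest for *Ccnb1*, *Cdk1* and *Pcna* and second highest for *Rrm2* and *Mcm5*. The spread between mice, as the SD of log2(normalised read count + 1), had a median of 0.93 over the 10 members in females, against 0.29 over 17792 genes whose mean was 10 or more. It ran from 0.16 for *Pcna* to 1.22 for *Ccnb1*. Without WT female 4 and U9-KO female 1 the members' median was 0.50 against 0.25. In males it was 0.54 against 0.19, with 0.88 for *Bub1*.

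Whether loss of *U90926* changed the expression of these genes was examined in each sex. In females no difference between genotypes was detected for any of the 10. *Mki67* had 505 ± 457 (SD, n = 5) in WT and 481 ± 374 (n = 5) in U9-KO, a log2 fold change of 0.06 ± 0.54 (SE; 95% interval -1.13 to 1.25). *Ccnb1* gave the lowest fold change, -0.21 ± 0.69 on the log2 scale, with means of 106 ± 132 in WT and 77.6 ± 75.8 in U9-KO. *Rrm2* gave the highest, 0.16 ± 0.52, with 118 ± 105 and 119 ± 76.2. *Pcna* was bounded most tightly, at 0.02 ± 0.11 (95% interval -0.22 to 0.26). Fold changes are on the log2(value + 1) scale, which understates changes of low genes.

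The female groups overlapped for all 10 members (0 of 10 without overlap, where 0.238% of all 24825 genes tested had none). In limma, 0 of 10 members passed a Benjamini-Hochberg adjusted p of 0.05 and 0 had an unadjusted p under 0.05. Over all genes 0 passed (0%), and the unadjusted p was under 0.05 for 553 (2.23%). 3 members leaned to U9-KO and 7 to WT, with a median log2 fold change of -0.06. The sign of this median depended on single libraries. Without WT female 4 all 10 leaned to U9-KO, with a median of 0.38, and without U9-KO female 1 all 10 leaned to WT, with a median of -0.35. Without both, 9 of 10 leaned to U9-KO with a median of 0.07, and 0 passed in any of these fits.

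In males the members leaned to WT and none passed. *Rrm2* had 81.7 ± 29.7 (SD, n = 3) in WT and 53.3 ± 14.8 (n = 4) in U9-KO, a log2 fold change of -0.59 ± 0.29 (SE; 95% interval -1.24 to 0.06; limma adjusted p = 0.661). *Mki67* had 253 ± 113 and 208 ± 71.6, a log2 fold change of -0.26 ± 0.31. *Ccnb1* was at -0.38 ± 0.35 and *Pcna* at 0.01 ± 0.07 on the same scale. 1 member leaned to U9-KO and 9 to WT, with a median of -0.39, and 0 of 10 had an unadjusted p under 0.05 in limma. Of 21930 genes tested, 0 passed (0%), and 7.60% had an unadjusted p under 0.05. Values of the groups overlapped for all 10 members, where 7.60% of all genes had none. Without WT male 2 the members' median was -0.07, with 4 towards U9-KO. Without WT male 1 it was -0.65, and 71 genes passed, none of them a member.

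The difference between the genotype effects of the sexes was tested as an interaction, in males minus females. It passed for 0 of 10 members and 0 of 26289 genes in limma (0%), with 910 genes at an unadjusted p under 0.05 (3.46%) and no member among them. The lowest unadjusted p of a member was 0.302, for *Rrm2*, whose interaction was -0.75 ± 0.71 on the log2 scale.

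**Figure D2:**
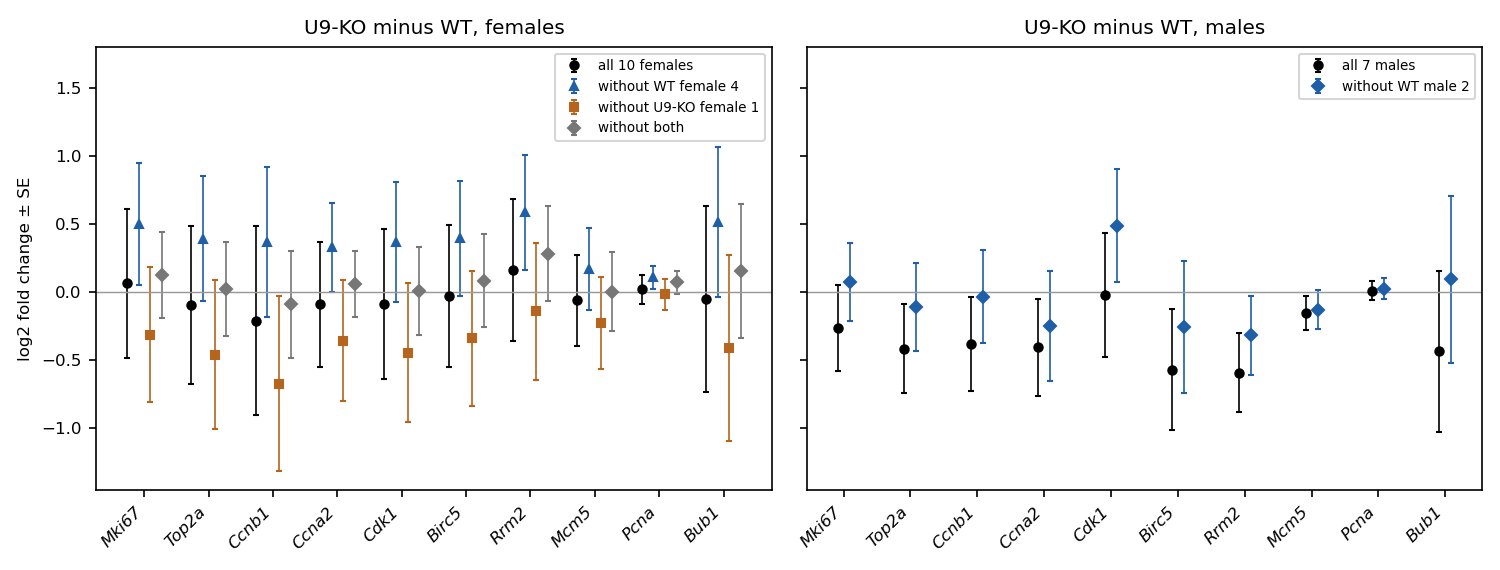
Log2 fold change of U9-KO over WT with its standard error (vertical axis) for each member (horizontal axis) in females (left) and males (right), with all mice and without the libraries that stood apart. In females the median moves from -0.06 with all mice to 0.38 when WT female 4 is left out and -0.35 when U9-KO female 1 is, and in males from -0.39 to -0.07 without WT male 2.

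The relation to ovarian tissue was measured with a granulosa score, the mean log2(value + 1) of *Fshr*, *Cyp19a1*, *Inha*, *Amh*, *Foxl2*, *Nr5a2*, *Hsd17b1* and *Amhr2*. These encode the receptor for follicle-stimulating hormone, aromatase, inhibin alpha, anti-Müllerian hormone and its receptor, and factors and enzymes of granulosa cells. The score was 10.03 in WT female 4 and 8.91 in U9-KO female 1, and 5.52 to 6.92 in the other females. Males had 3.01 to 3.50, with *Fshr* at 0 in all 7. The summed level of the 8 genes ran from 998 to 15677 in WT females and from 1164 to 9724 in U9-KO females, and from 215 to 318 in males. 7 of the 8 genes were highest in WT female 4 and 1 in U9-KO female 1.

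All 10 members had a positive slope on this score over the 10 females, and 8 passed (limma, adjusted p under 0.05), where 4.99% of all 24825 genes passed, 3.52% with a positive slope and 1.48% with a negative one. *Ccnb1* changed most, by 0.75 ± 0.12 log2 units (SE) per unit of score (adjusted p = 0.0105), followed by *Bub1* at 0.69 ± 0.14 (adjusted p = 0.0218). *Top2a* had 0.59, *Cdk1* 0.58, *Mki67* 0.55, *Birc5* 0.52, *Ccna2* 0.49 and *Rrm2* 0.48, with adjusted p between 0.00957 and 0.0493. *Mcm5* (0.27 ± 0.09, adjusted p = 0.126) and *Pcna* (0.09 ± 0.03, adjusted p = 0.0836) did not pass. The median slope of the members was 0.53.

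The 8 calls rested on WT female 4 and U9-KO female 1 together. Leaving out either one kept all 10 slopes positive, with a median of 0.50 if WT female 4 was left out and 0.49 if U9-KO female 1 was, but 0 members passed, and 84 and 107 genes in all. Without both mice, 6 of 10 slopes were positive, the median was 0.02 and 0 genes passed. *Bub1* then had 0.42 ± 0.51 and *Rrm2* -0.25 ± 0.38. Pearson's r over the 10 females was 0.67 to 0.90 for the members, with a median of 0.83, and Spearman's rho was 0.31 to 0.64. For *Mki67* r was 0.82 (permutation p = 0.0118, adjusted over all genes 0.148) and rho 0.31 (permutation p = 0.381, adjusted 0.802). By the permutation test 0 members passed after adjustment over all genes, for r or for rho, the lowest adjusted p of r being 0.124, and 0% of all genes passed for r. With WT female 4 and U9-KO female 1 left out, the 2 mice farthest from the median score, r lay between -0.23 and 0.28. In all, 30 such relations of a member to a score were computed.

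**Figure D3:**
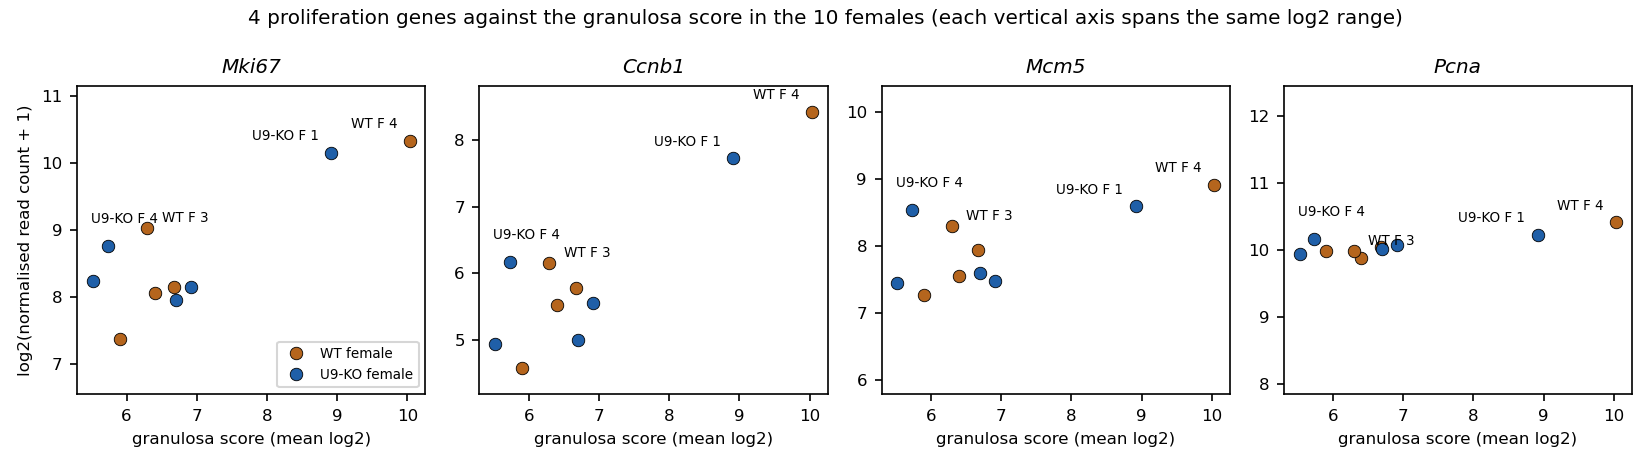
Log2(normalised read count + 1) of *Mki67*, *Ccnb1*, *Mcm5* and *Pcna* (vertical axes, of equal span) against the granulosa score (horizontal axis, mean log2) in the 5 WT and 5 U9-KO females. WT female 4 (score 10.03) and U9-KO female 1 (8.91) lie at the upper right in each panel, and the other 8 females, at 5.52 to 6.92, show no common trend.

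WT female 3 and U9-KO female 4, which came next in order for the proliferation genes, were not rich in granulosa transcripts, with scores of 6.30 and 5.74. Of 4 oviduct genes, *Ovgp1*, the oviductal glycoprotein, was highest in these mice, at 7684 and 1256 against 22 to 212 in the other females, and so was *Rsph1* of motile cilia, at 125 and 164 against 28 to 106. *Pax8* did not set them apart, at 163 and 166 against 43 to 232, and *Foxj1* was at 169 and 328 against 35 to 294. Other lists were also highest in these mice. Their progenitor and fibroblast sums were 100104 and 90095, against 46929 to 82929 in the other females. Their mesothelial sums were 12877 and 14587, against 6728 to 11944. These sums were picked out after their values were seen. The part of oviduct, progenitor or mesothelial cells in the levels of the members was not tested.

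Other cell cycle genes were read from 5 lists. Of 25 genes of the kinetochore, spindle and cytokinesis, 21 passed with a positive slope on the granulosa score, where 3.52% of all genes did, and the median was 0.46. Without WT female 4 it was 0 of 25, and without U9-KO female 1 it was 1. Its most abundant members, *Anln* (anillin, of the cleavage furrow), *Incenp* (of the chromosomal passenger complex) and *Cenpa* (the centromeric histone), had slopes of 0.13, 0.28 and 0.40, of which *Incenp* and *Cenpa* passed (adjusted p = 0.00848 and 0.0209). Of 23 mitotic kinases and regulators, 13 passed, with a median of 0.41, and 1 and 2 passed when WT female 4 and U9-KO female 1, respectively, were left out. *Ccnb2* (cyclin B2, 0.67, adjusted p = 0.0118) and *Cdc20* (the activator of the anaphase-promoting complex, 0.63, adjusted p = 0.00957) were among them. This list is not purely mitotic. It also held genes of S phase entry, such as *Ccne1*, *Ccne2*, *E2f1* and *Cdc25a*, of which *Cdc25a* passed. The most abundant genes of this list, *Pttg1* (securin), *Cks1b* and *Cdc25b*, had slopes of -0.04, 0.01 and 0.01 and did not pass.

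The genes of DNA replication formed 2 lists, and whether their counts differ from those of the mitotic lists was not tested. Of 16 origin licensing and firing genes 3 passed, *Mcm2* and *Mcm3* of the MCM ring and *Dbf4*, the activator of the CDC7 kinase, at 0.27, 0.24 and 0.39. The most abundant of that list, *Mcm7*, *Mcm6* and *Gins4*, had slopes of 0.12, 0.20 and 0.02. Of 19 genes of DNA synthesis and nucleotide supply 2 passed, *Uhrf1* (0.48), which maintains DNA methylation at the fork, and *Dut* (0.17), the dUTPase. *Rrm1*, *Slbp* and *Pold1*, the most abundant there, had 0.12, 0.09 and 0.07. In these 4 lists together, 39 of 83 genes passed, all with a positive slope, and 82 of 83 slopes were positive, with a median of 0.33. Leaving out WT female 4 alone left 1 of the 83 and U9-KO female 1 alone 3, with 0 in both replication lists. Without WT female 4 and U9-KO female 1, 0 of 83 passed, 49 were positive and the median was 0.05.

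Of the 15 G1 cyclins, CDKs and CDK inhibitors, 7 had a positive and 8 a negative slope, with a median of -0.01. *Cdk4* (0.17, adjusted p = 0.0305) and the CDK inhibitor *Cdkn1b* (0.35, adjusted p = 0.00864) passed, and 0 of 15 did when either WT female 4 or U9-KO female 1 was left out. *Cdkn1b* (p27) was at 5192 in WT female 4 and 3899 in U9-KO female 1, against 1551 to 2864 in the other females. The most abundant genes of the list, *Ccnd2* and the inhibitor *Cdkn2c*, had slopes of -0.12 and -0.19 and did not pass. In U9-KO against WT, 0 of the 98 genes of the 5 lists passed in either sex or in the interaction.

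**Figure D4:**
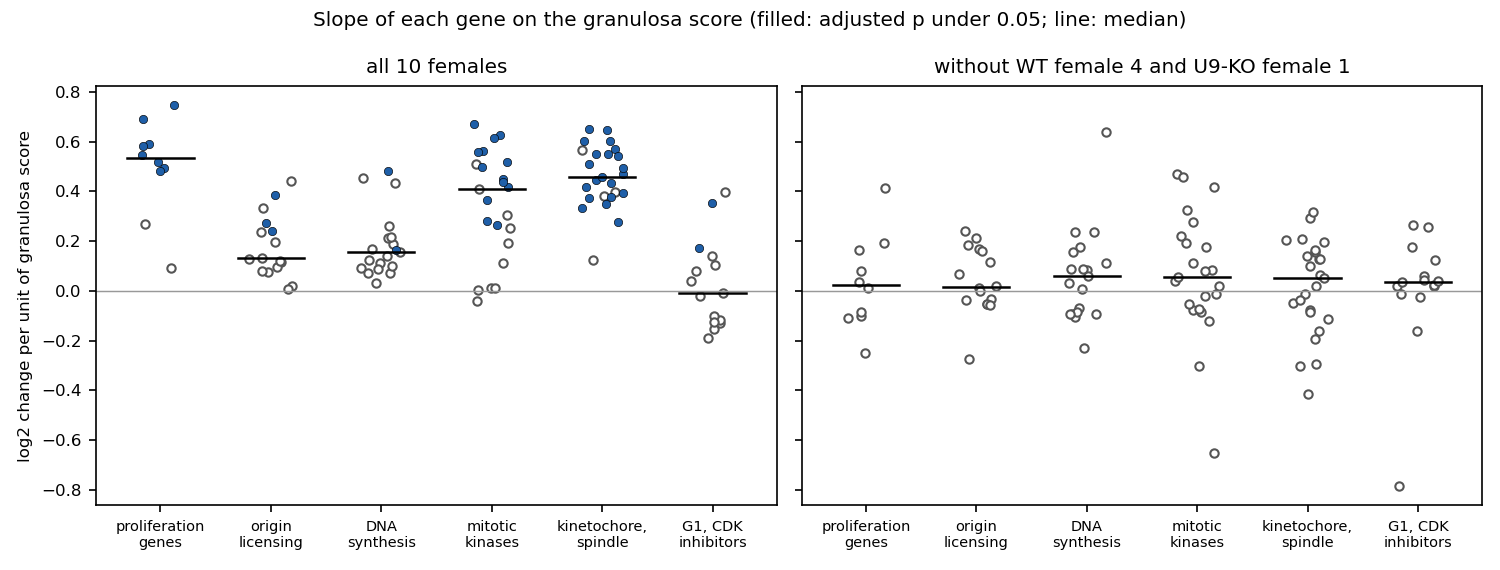
Slope of each gene on the granulosa score over the females (vertical axis, log2 change per unit of score) for the members and for 5 lists of cell cycle genes (horizontal axis), with filled points for adjusted p under 0.05 and a line at each median. With all 10 females the median of the kinetochore and spindle list was 0.46. That of the mitotic kinases and regulators, some of them genes of S phase entry, was 0.41. Medians of origin licensing (0.13) and DNA synthesis (0.16) were lower. Without WT female 4 and U9-KO female 1 all 6 medians lie between 0.02 and 0.06.

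Other markers moved with the same libraries. On the granulosa score, 6 of 9 oocyte genes and 4 of 8 luteal and thecal genes passed with a positive slope, where 3.52% of all genes did. Leaving out either WT female 4 or U9-KO female 1 left 0 of the oocyte genes and 1 of the luteal and thecal genes. The luteal and thecal sum was 116608 in WT female 4 and 139768 in U9-KO female 1, against 4327 to 36672 in the other females, and the oocyte sum was 1854 and 1340 against 67 to 471. With a negative slope, 3 of 8 macrophage genes (*Csf1r*, *Cd163* and *Mrc1*), 1 of 10 adipocyte genes (*Adipoq*), 2 of 6 progenitor and fibroblast genes (*Dpp4* and *Dcn*) and 2 of 6 mesothelial genes (*Lrrn4* and *Msln*) passed, where 1.48% of all genes did. Of these 4 lists 0 genes passed when either mouse was left out. Of the plasma cell genes 1 of 6 passed with a positive slope (*Derl3*, 0.68), and 0 without either mouse. None of 4 oviduct, 10 B cell, 10 T cell, 4 germinal centre B cell, 6 endothelial or 5 erythroid genes passed. Of epididymal genes, 1 of the 2 that could be tested passed (*Cst8*), also lost without either mouse, and 0 of 3 testis germ cell genes. The part of these cells in the levels of the proliferation genes was not tested.

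The relation to lymphoid cells was measured with the mean log2(value + 1) of 10 B cell and 10 T cell genes. This score ran from 5.09 in U9-KO female 3 to 6.71 in U9-KO female 1 among females. The mice richest in proliferation transcripts were at opposite sides, since WT female 4 had 5.39, the second lowest. Over the 10 females 1 member had a positive slope and 9 a negative one, with a median of -0.11, and 0 of 10 passed in limma or had an unadjusted p under 0.05. Over all genes 5 passed (0.0201%), all with a positive slope, and 4.68% had an unadjusted p under 0.05. They included the B cell genes *Cd79b* and *Ms4a1*, which belong to the score, and *Siglecg* and *Ighd*, and were named after their values were seen. *Mcm5* had a slope of -0.13 ± 0.36.

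The sign depended on the list and on single mice. With the B cell list alone all 10 slopes were negative (median -0.16), and with the T cell list alone 8 of 10 were positive (median 0.18). Without WT female 4 all 10 slopes were positive with a median of 0.45, without U9-KO female 1 all 10 were negative with a median of -0.82, and without both all 10 were negative with a median of -0.16. Pearson's r lay between -0.30 and 0.02 and rho between -0.37 and 0.02, with unadjusted permutation p of at least 0.405 for r and 0.297 for rho and an adjusted p of 1.00 for r. Left without U9-KO females 1 and 3, the mice farthest from the median score, r was -0.88 to -0.71 over 8 females. These 8 include WT female 4, which had the lowest lymphoid score among them and the highest value of all 10 members. Germinal centre B cells, a dividing lymphoid population, left few reads. Their 4 genes summed to between 27 and 74 in females and between 16 and 41 in males.

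In males the lymphoid score was 5.56 to 5.92 in WT and 4.83 to 5.42 in U9-KO, so that the genotypes did not overlap and the effects of genotype and lymphoid content on a member cannot be told apart in these 7 mice. 8 of 10 members had a positive slope, with a median of 0.35, and 0 of 10 passed in limma or had an unadjusted p under 0.05, where 0% of the 21930 genes did so after adjustment and 6.19% were under 0.05 before it. *Mcm5* had r of 0.69 (exact permutation p = 0.110, adjusted 0.824), rho of 0.79 (exact permutation p = 0.0480, adjusted 0.856) and a slope of 0.19 ± 0.15. For the other members r ran down to -0.37, for *Pcna*. Without U9-KO males 1 and 3, the mice farthest from the median score, r was -0.48 to 0.70 over 5 mice. The B and T cell lists differed in males too. With the B cell list alone 9 of 10 slopes were positive, with a median of 0.54, and the lowest unadjusted p of a member was 0.0115 (limma adjusted p = 0.293). With the T cell list alone 4 of 10 were positive, with a median of -0.06. With genotype in the fit, 4 of 10 slopes were positive and the median was -0.12, and without WT male 2, 4 of 10 were positive with a median of -0.05. WT male 2, the highest for 9 members, was also the richest in macrophage transcripts. The 8 macrophage genes summed to 46326 in this mouse, against 28559 and 32989 in the other WT males and 21361 to 28076 in U9-KO males, and its *Csf1r* was at 6263 against 2822 to 4399 in the other males. The rise was not confined to macrophage genes. Its B cell (1295), plasma cell (2024), endothelial (24205), progenitor and fibroblast (60204) and mesothelial (8396) sums were also the highest of the males. Its adipocyte sum was the lowest, at 592692 against 735949 to 880771 in the other males. The part of macrophages or of these other cells in the male values was not tested.

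**Figure D5:**
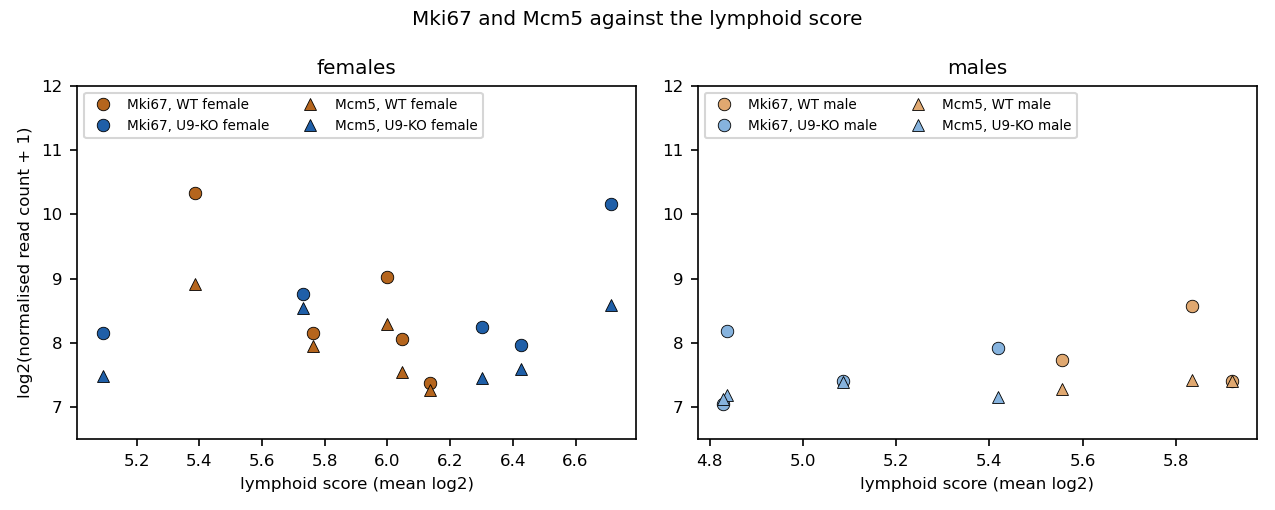
Log2(normalised read count + 1) of *Mki67* (circles) and *Mcm5* (triangles) on the vertical axis against the lymphoid score (horizontal axis, mean log2) in females (left) and males (right), with WT and U9-KO mice in separate colours. In females WT female 4 (score 5.39) and U9-KO female 1 (6.71) are high at opposite sides, and in males the WT mice (5.56 to 5.92) lie to the right of all U9-KO mice (4.83 to 5.42).

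The genes most like the members were sought by Pearson's r with the mean of the 10 members, each scaled to unit variance, as a description with no test. Over the 10 females, the 10 closest of 17782 genes included *Stil*, *Kifc1*, *Stmn1*, *Hmgb2*, *Bub1b*, *Tpx2*, *Sgo1*, *Lcorl* and *Smc2*, with r from 0.99 to 0.98. Among the 100 closest, 28 of the 97 genes from the 5 cell cycle lists were found. In particular *Stil* ran from 13 to 101 and *Stmn1* from 196 to 1062. The points share 2 mice that are high in all of these genes. Over the 7 males the 10 closest of 16554 were *AC157594.1*, *Ckap2l*, *Ccnb2*, *Slc37a2*, *Myo5a*, *Iqgap3*, *Stk24*, *Lypd6*, *Gm7694* and *Ifnar1*, with r from 0.99 to 0.96. Of the cell cycle lists, 6 of 96 genes were among the 100 closest. In males the 8 macrophage genes had r from 0.41 to 0.92 with the members' mean and the 10 B cell genes 0.06 to 0.73. In females the ranges were -0.76 to 0.35 and -0.49 to 0.11. WT male 2 was highest of the males for 9 of 10 members and in the macrophage and B cell sums. The r values without this mouse were not computed, and the sexes were not tested against each other.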

How the data were processed

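RNA-seq of whole pWAT from 17 mice was analysed as deposited (stranded poly(A) libraries, paired-end reads). Per the labels and the methods of the study, the authors trimmed reads with trim_galore, aligned them to GRCm38 with STAR 2.7.3a, counted them per gene with summarizeOverlaps and normalised with DESeq2 1.28.1 (the versions and build are from the submitters' processing notes). The deposited values are scores in the sense of normalised counts, divided by size factors set within each sex and rounded by the authors to whole numbers, so count models were not used and depth is known only as normalised totals. Of 55401 gene IDs, 55141 were named with GENCODE M21. 2 male files carry another replicate number in their header than in the labels, which were followed.

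In each fit, genes whose values summed to 10 or more were tested with limma 3.58.1 in R 4.3.3 on log2(value + 1), with the trend option of its empirical Bayes step. P-values were adjusted by Benjamini-Hochberg across all genes tested, at a threshold of 0.05. The fits were tested on simulated data. Mice are 1 library each, so p-values measure the spread between mice. Correlations used 100000 permutations in females and all orders in males (Python 3, SciPy). Named genes were the members, the 3 most abundant genes of each cell cycle list, listed genes where 5 or fewer passed, and the 10 genes most like the members. *Ccnb2*, *Cdc20*, *Ccne1*, *Ccne2*, *E2f1*, *Cdc25a*, the oviduct genes and the lymphoid-slope genes were named after their values were seen. Some genes these rules would name are not reported here. The members and lists were chosen with earlier results of these data known. Alternatives covered filter, pseudocount, trend, scaling, covariates, replicate block and leaving out each mouse. Leaving out the 2 granulosa-richest libraries and leaving *Trac* out of the T cell list were added after seeing the data.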

Additional observations from a re-analysis of the deposited data

Results flagged for a closer look

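In groups of 4 or 5 mice, the most distant mouse was compared with its nearest neighbour for each of the 10 members (30 groups, Dixon's ratio against its 95% critical value, 0.829 for 4 mice and 0.71 for 5). The ratio was taken on normalised read counts and not on the log2 scale of the fits, where high values stand less far apart. It was not computed on log2 values. Chance flags about 1 group in 20 only if values are normally distributed, which was not tested. The groups are not independent, since the same mice recur. 12 values stood apart, 7 in WT female 4 and 5 in U9-KO female 1, and none in U9-KO males. In WT female 4 these were *Top2a* (1421), *Ccnb1* (340), *Ccna2* (429), *Cdk1* (332), *Birc5* (246), *Rrm2* (300) and *Pcna* (1367). In U9-KO female 1 they were *Mki67* (1139), *Top2a* (960), *Ccnb1* (210), *Cdk1* (239) and *Bub1* (122). These are the libraries with granulosa scores of 10.03 and 8.91.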

How the results depend on the processing

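No member passed the threshold in U9-KO against WT, in the interaction or on the lymphoid score under any alternative. Over all genes, U9-KO against WT called 2 genes in females without the filter and 1 without the trend, and 16 and 1 in males. Leaving out each male in turn gave 0 to 71, with 71 without WT male 1. The interaction called 3 without the filter. The slope on the granulosa score called 1240 genes and 8 members, 443 and 2 without the filter, 555 and 4 without the trend, 0 and 0 without the 2 granulosa-richest libraries, and 84 to 2018 genes and 0 to 10 members when each female was left out, with 0 members without WT female 4 or without U9-KO female 1, 10 without U9-KO female 4, 695 genes when WT female 1 was left out, and 2018 when U9-KO female 3 was. The slopes of *Mki67* (-0.099), *Top2a* (-0.085), *Rrm2* (-0.25) and *Mcm5* (-0.11) reversed without the 2 granulosa-richest libraries. The lymphoid slope in females called 5 genes, 0 without the filter, without the trend, with quantile normalization, without the 2 granulosa-richest libraries or with the T cell list alone, 2 with genotype as a covariate, 13 with the B cell list alone, 10 without *Trac*, and 0 to 5 when each female was left out, with 5 only without WT female 2. In males it called 0, and 0 to 6 when each mouse was left out, with 6 without WT male 1. *Mcm5* reversed on it in females with the T cell list alone (0.15). The cause of these changes was not tested.

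Leaving out each mouse in turn moved the log2 fold changes in females from -0.31 to 0.50 for *Mki67*, -0.67 to 0.37 for *Ccnb1*, -0.14 to 0.59 for *Rrm2* and -0.023 to 0.11 for *Pcna*, and in males from -0.51 to 0.075 for *Mki67* and -0.035 to 0.044 for *Pcna*. The female lymphoid slope of *Mcm5* moved from -0.58 to 0.19. *Ccnb1* in females was 0.016 with the granulosa score as a covariate and 0.035 with both scores. In males, with the lymphoid score as a covariate, *Mki67* was 0.0088 and *Pcna* -0.075. In that fit 9 members still leaned to WT and 1 to U9-KO. The members' median was -0.32, against -0.39 without the covariate, and the lowest member was at -0.90, against -0.59. Same-numbered mice had correlations of -0.44 to 0.11 in females and -0.12 to -0.01 in males. These values gave no sign of pairing by replicate number, but the pairs were too few to exclude it. In males the numbers followed the labels, from which some file headers differ. With the replicate block, 0 genes passed in either sex and in the interaction, *Rrm2* in males was -0.53, and U9-KO male 4 had no partner and added nothing. The deposited values are rounded, so low genes such as *Bub1* carry counting error that limits them.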
